A study of Xenopus laevis with 8 samples.

Results

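The genes described here encode the extracellular matrix and its receptors: collagens, laminins, nidogens, fibrillins, fibronectin, tgfbi, sparc and the integrins. They were chosen by symbol alone, from the platform annotation. Symbols of the form col, number, a, number were taken, with symbols starting lama, lamb, lamc, fbn, itga or itgb, and fn1, tgfbi, sparc, nid1, nid2 and postn. This gave 44 of the 11303 named genes on the array, represented by 69 probe sets. Where a gene had several probe sets, it was represented by the brightest, judged by its average across all 8 arrays. Genes matching lama, lamc, nid1 or postn are not analysed here.

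RNA came from anterior endoderm of Xenopus laevis embryos dissected at Nieuwkoop and Faber stage 15. All embryos, controls included, had been injected at the 8-cell stage with mRNA for Ngn3-GR into 2 dorsal vegetal blastomeres. In Ngn3-GR, Neurogenin 3, a transcription factor that drives neuronal and pancreatic endocrine fates, is joined to part of the glucocorticoid receptor, and dexamethasone switches such fusions on. The DEX group (4 arrays) received 10 µM dexamethasone for 4 hours from stage 12, and the no_DEX group (4 arrays) received none. No group with dexamethasone but without the fusion was analysed, so the hormone and the activated factor cannot be told apart here. The injected mRNA was supplied to chosen blastomeres, and the cells that took it up were not separated from the rest of the explant.

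The extracellular matrix is a meshwork of secreted proteins around and beneath cells. In the early frog embryo, fibronectin fibrils line the blastocoel roof and the surfaces between germ layers. The notochord is enclosed in a sheath rich in collagen II, a fibrillar collagen also typical of cartilage, and collagen IX decorates collagen II fibrils. Basement membranes are sheets of laminin and collagen IV, joined by nidogens and heparan sulphate proteoglycans such as collagen XVIII. Integrins are paired alpha and beta chains in the cell membrane that bind these proteins and connect them to the actin cytoskeleton.

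All values are log2 signals from RMA, and changes are DEX minus no_DEX on that scale. Arrays carrying the same replicate number are called a pair. Deviations from the group means correlated at 0.63 to 0.78 between arrays of one number, so each test was run both without and with the replicate number as a block. A gene passed at an adjusted p under 0.05, from limma with Benjamini-Hochberg adjustment over all 32539 probe sets. The highest of 17 Affymetrix Tag controls, taken as background, read 4.40, and 17 of the 44 genes had means at or under it. Signals of different genes are not comparable in amount, because each probe set has its own response. In whole pieces of tissue, fewer cells of a type and less RNA per cell cannot be told apart.

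With dexamethasone, tgfbi.L fell and col16a1.L rose in the fit with the replicate block. The tgfbi product is a secreted protein that binds collagens and integrins, and collagen XVI belongs to the collagens that associate with fibrils. The group of collagens II and IX had median differences of −0.58, −1.78 and −0.82 in pairs 1 to 3 and −0.03 in pair 4, and none of its 5 genes passed. In pairs 1 to 3 the median gene was col9a2.L, whose DEX arrays lay within the range of the background controls. Differences ran from −0.20 to 0.15 in the basement membrane group, which does not hold sparc, and from −0.43 to 0.20 among integrins, and none passed. Without the block 0 of the 44 genes passed, against 0.0177% of all named genes, and 9 had an unadjusted p under 0.05 by limma (background 4.80%). With the block 1 of 44 fell, against 0.301% of named genes, and 1 of 44 rose, against 0.434%.

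More genes of the set stood lower than higher. With the block, 12 of 44 were lower at an unadjusted p under 0.05, where the share of all named genes was 6.31%. The corresponding count of higher genes was 2 of 44, with a background of 7.71%. In 4 of 4 pairs 13 of 44 were lower (background 10.8%) and 2 were higher (12.5%). The median change over the 44 genes was −0.08, with 32 below 0, while the median over all probe sets tested was 0.002. These genes share arrays and tissues, so the counts describe the set and do not test it.

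**Figure D1:**
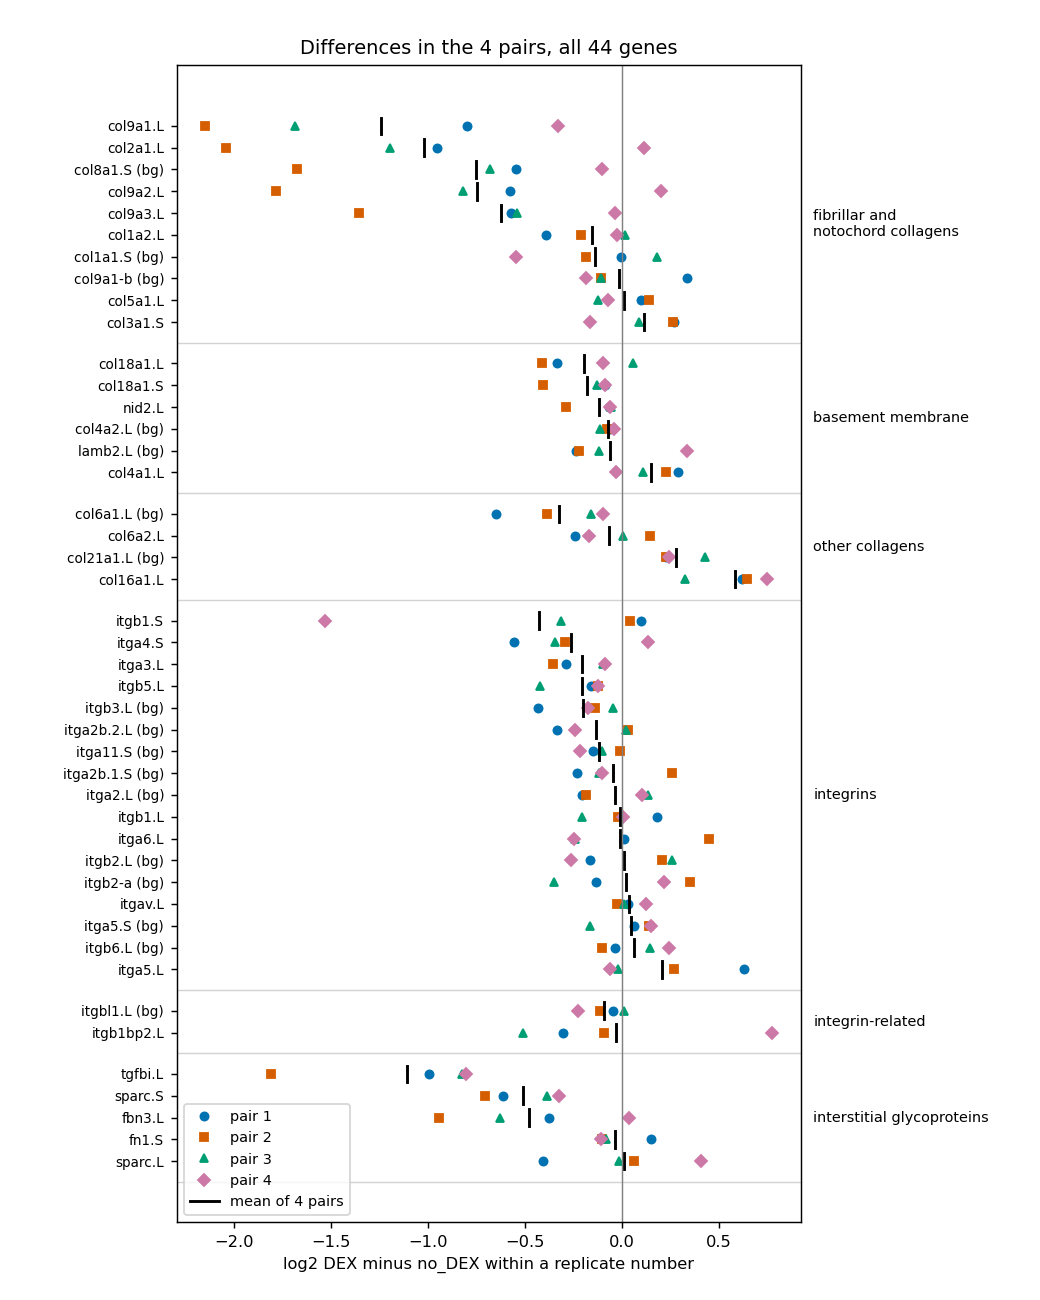
Log2 difference between DEX and no_DEX within each replicate number (x axis) for all 44 genes (y axis), grouped by type; coloured symbols are the 4 pairs, black bars their mean, and (bg) marks genes whose mean is at or under the background of 4.40. Collagen genes at the top reach −2.15 in pair 2, and in pair 4 the lowest of them is col1a1.S at −0.54, while tgfbi.L and sparc.S lie below 0 and col16a1.L above 0 in every pair.

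The interstitial glycoprotein tgfbi.L (probe set Xl2.1587.1.S1_at) read 6.14, 5.38, 6.11 and 5.89 on DEX arrays 1 to 4, and 7.14, 7.19, 6.93 and 6.69 on no_DEX arrays 1 to 4. Every DEX array was below every no_DEX array. Non-overlap in that direction was found for this 1 gene of the 44, with a background of 1.18% among named genes. The group levels were 5.88 ± 0.35 and 6.99 ± 0.23 (SD, n = 4), a change of −1.11 ± 0.19 (SE), so no_DEX stood 2.16-fold above DEX. The adjusted p by limma was 0.270 without the block and 0.0355 with it. The pairs differed by −1.0, −1.81, −0.82 and −0.80, so pair 2 was the widest, and without pair 2 the change was −0.87. With the block and any 1 pair left out the gene no longer passed, with adjusted p between 0.0601 and 0.118 from 6 arrays.

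Collagen XVI went the other way. The col16a1.L probe set Xl2.54372.1.A1_at read 7.14, 7.26, 6.75 and 7.32 on DEX arrays 1 to 4 and 6.52, 6.62, 6.42 and 6.58 on no_DEX arrays 1 to 4. The A in its name is a mark of orientation, and the strand it measures was not checked. All 4 DEX arrays lay above all 4 no_DEX arrays. The change was 0.58 ± 0.13 (SE), or 1.5-fold, with an adjusted p by limma of 0.572 without the block and 0.0437 with it. The call was lost with the block when array medians were centred (0.0516) and when any 1 pair was left out (0.0818 to 0.232). A second, dimmer probe set, Xl2.54372.2.S1_at, differed by 0.42 and did not pass (0.0959 with the block). It too was higher in 4 of 4 pairs. The only other gene of the set without overlap was col21a1.L, also a fibril-associated collagen, higher by 0.28 with no array above 2.76, so all under the highest background control (adjusted p by limma = 0.186 with the block). Non-overlap with DEX higher held for these 2 of 44, with a background of 1.84%.

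Collagen II carried some of the widest differences without passing. The only probe set of col2a1.L, Xl2.606.1.S2_s_at, whose suffix marks probes shared between transcripts, read 6.30, 5.78, 5.44 and 5.38 on DEX arrays 1 to 4. The no_DEX arrays read 7.25, 7.82, 6.64 and 5.26. The no_DEX array of number 4 was thus the lowest of all 8, and the groups overlapped. The change was −1.02 ± 0.49 (SE) without the block, with an adjusted p by limma of 1.00, and 0.180 with the block. By pair it was −0.95, −2.04, −1.20 and 0.11. Leaving out pair 4 gave −1.40 (adjusted p = 0.0517 with the block), and leaving out pair 2 gave −0.68 (0.457).

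The 3 collagen IX chains with mean signal above background followed the same arrays, though col9a2.L passed that filter only through its no_DEX arrays. Values of col9a1.L (Xl2.16042.1.S1_at) were 5.42, 4.71, 4.63 and 4.55 on DEX arrays 1 to 4 and 6.22, 6.86, 6.31 and 4.88 on no_DEX arrays 1 to 4. Its change was the widest of all 44, −1.24 ± 0.39 (SE), and it did not pass (adjusted p by limma = 0.969 without and 0.100 with the block). The col9a1.L signal was lower in 4 of 4 pairs, from −0.33 in pair 4 to −2.15 in pair 2.

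For col9a2.L the DEX arrays read 3.99, 4.00, 4.05 and 4.11, all within the range of the background controls. Its no_DEX arrays read 4.57, 5.78, 4.87 and 3.91, so signal above that range was present in numbers 1 to 3. The fitted change was −0.75 (adjusted p by limma = 0.283 with the block), and it is limited by the floor the DEX values sit on. Without no_DEX replicate 2 it was −0.41, and without pair 2, with the block, −0.40. The third chain, col9a3.L, differed by −0.63, from 6.80 ± 0.47 to 6.18 ± 0.19 (SD, n = 4; adjusted p by limma = 0.20 with the block). In pair 4 its difference was −0.03, and without pair 2 the col9a3.L change was −0.38.

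The symbol col9a1-b, a further collagen IX entry of the annotation, was within background at 3.46 and 3.48 and differed by −0.02. Over all 5 collagen II and IX genes the median changes in pairs 1 to 4 were −0.58, −1.78, −0.82 and −0.03, while the medians over all named genes were −0.02, 0.007, 0.02 and 0.02. In pairs 1 to 3 the collagen medians were the values of col9a2.L, the middle gene, whose DEX arrays sat on the floor. The collagen VIII gene col8a1.S, which encodes a network-forming short-chain collagen, showed −0.55, −1.67, −0.68 and −0.11 in pairs 1 to 4. Its mean of 3.70 was within background. The other probe set, with an S in its name where this one has an A, differed by −0.04, so the probe sets disagree. Without pair 2 the col8a1.S change was −0.44.

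Among the 44 genes 19 were lower in all of pairs 1 to 3, with a background of 17.9% among named genes. They included 5 of the 10 genes grouped as fibrillar and notochord collagens, namely the 5 above that differed by 0.63 or more. One of these 5, col8a1.S, was within background, and above background the count was 4 of 7. That count includes col9a2.L, whose mean of 4.41 passed the filter only through its no_DEX arrays, so it lends the count no support. The collagen share was not the highest. Lower in pairs 1 to 3 were also 4 of 6 basement membrane genes, 3 of 5 interstitial glycoproteins and 5 of 17 integrins. For other collagens the count was 1 of 4, and for integrin-related genes 1 of 2.

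**Figure D2:**
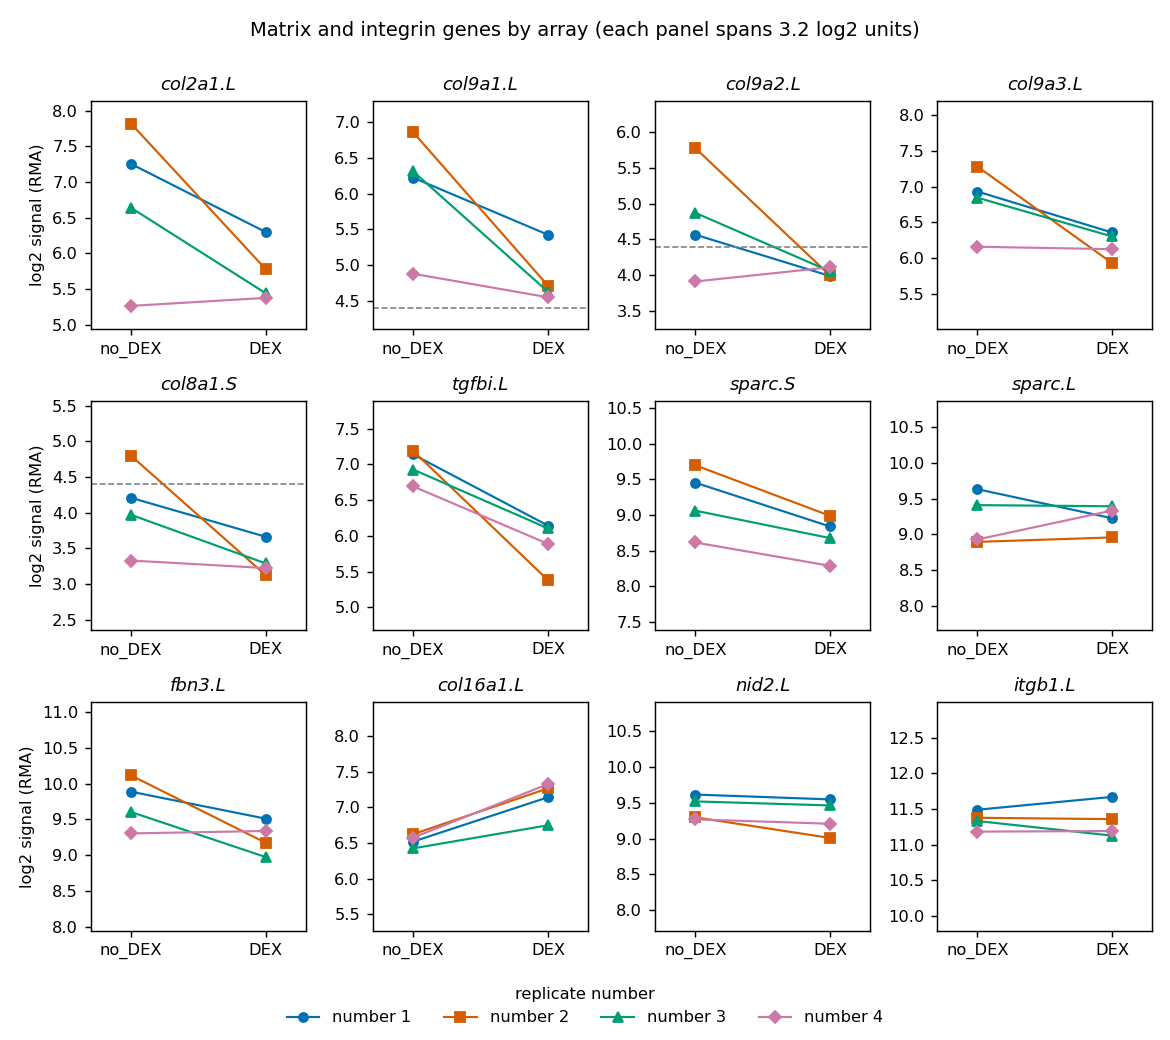
Log2 signal (y axis) in no_DEX and DEX arrays (x axis) for 12 genes; lines join arrays of one replicate number, and the dashed line is the highest background control, 4.40. The no_DEX array of number 4 is low for col2a1.L, col9a1.L, col9a2.L and col9a3.L, whereas tgfbi.L falls and col16a1.L rises along all 4 lines.

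The collagens of general connective tissue gave smaller differences. For the collagen I chains col1a1.S and col1a2.L the changes were −0.14 and −0.15, for the collagen III gene col3a1.S 0.11, and for col5a1.L, whose product regulates collagen I fibrils, 0.01. None passed. Their median changes in pairs 1 to 4 were 0.05, −0.02, 0.05 and −0.12. Genes named outside the rule given with the methods, such as col5a1.L, complete their groups and were added after their values were seen. The 3 probe sets of col1a2.L gave −0.15, −0.15 and −0.21. The mean of col1a1.S was within background, as was that of its other probe set, which gave −0.24.

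The values of col3a1.S varied with the replicate number. For col3a1.S the DEX arrays read 4.41, 5.04, 5.04 and 5.74 in numbers 1 to 4, and the no_DEX arrays 4.14, 4.78, 4.95 and 5.90. Number 1 was lowest and number 4 highest in both groups. A test between numbers in the fit with the block, chosen after the values were seen, gave an adjusted p by limma of 0.00135 for col3a1.S and 0.00828 for col1a2.L. The collagen I gene col1a1.S, within background, did not pass (0.372), and the other col1a2.L probe sets gave 0.399 and 0.000312. In all, 5 of the 44 genes differed between numbers, where the background was 21.7%, the others being sparc.S (0.00935), itgb1bp2.L (0.0335) and col4a2.L (0.0480).

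Both homeologs of sparc, which encodes a secreted collagen-binding protein of basement membranes, were measured. They were grouped with the interstitial glycoproteins and are not counted in the basement membrane group. Values of sparc.S were 8.84, 8.99, 8.68 and 8.29 on DEX arrays 1 to 4 and 9.45, 9.70, 9.06 and 8.61 on no_DEX arrays 1 to 4. The gene was lower in 4 of 4 pairs, with a change of −0.51 ± 0.24 (SE), and did not pass (adjusted p by limma = 1.00 without and 0.0679 with the block). With the block and a trended, robust prior variance it passed (0.0390). For sparc.L the change was 0.01, with pairs at −0.41, 0.06, −0.02 and 0.41. The sparc.S difference minus that of sparc.L was −0.21, −0.77, −0.37 and −0.73 in pairs 1 to 4, a contrast that was not tested.

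Fibrillin and fibronectin complete the interstitial group. The fbn3.L signal, for a fibrillin of extracellular microfibrils, was 9.51, 9.17, 8.97 and 9.34 on DEX arrays 1 to 4 and 9.89, 10.12, 9.60 and 9.30 on no_DEX arrays 1 to 4. It differed by −0.48 ± 0.19 (SE) and did not pass (adjusted p by limma = 0.219 with the block), and pair 4 stood at 0.03. Fibronectin, fn1.S, was bright on every array, from 12.54 to 13.00, and differed by −0.04. The 95% interval with the block ran from −0.22 to 0.15, and the 2 other bright fn1.S probe sets gave −0.07 and −0.09.

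In the basement membrane group 0 of 6 genes passed in either fit, and 0 had an unadjusted p under 0.05 by limma with the block. Changes ran from −0.20 to 0.15, with a median of −0.10. Neither homeolog of the collagen XVIII gene passed, with col18a1.L at −0.20 (8.82 ± 0.26 with and 9.02 ± 0.19 without dexamethasone, SD, n = 4) and col18a1.S at −0.18. Intervals with the block were −0.42 to 0.03 and −0.38 to 0.02. Nidogen 2, nid2.L, which links laminin to collagen IV, read 9.55, 9.01, 9.46 and 9.21 on DEX arrays 1 to 4 and 9.62, 9.30, 9.52 and 9.27 on no_DEX arrays 1 to 4. Its change was −0.12, below 0 in 4 of 4 pairs, and its probe set also has the suffix for shared probes.

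The collagen IV chains gave no common direction. The col4a1.L gene differed by 0.15 on its brighter probe set and by −0.21 on the dimmer one, whose mean was within background. The brighter one has an A in its name and the dimmer one an S. Both col4a2.L probe sets, within background, gave −0.07. The laminin chain gene lamb2.L, the only laminin of the set, read 3.34 to 3.91, also within background. In the remaining group of collagens, the collagen VI chains col6a1.L and col6a2.L, which form beaded microfibrils, differed by −0.32 and −0.07 without passing, and col6a1.L was within background.

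Of the 17 integrin chains 0 passed in either fit, and 8 had means above background. Changes ran from −0.43 to 0.20 with a median of −0.04. Over the 8 chains above background the median was −0.11, with 6 below 0 and 2 above. Without no_DEX replicate 2 the median over all 17 was −0.11. The chains of the main fibronectin receptor come from the itga5 and itgb1 genes. The itga5.L signal was 8.37 ± 0.26 with and 8.16 ± 0.18 without dexamethasone (SD, n = 4), a difference of 0.20 that did not pass. It rested on pair 1, at 0.63, and without that pair it was 0.062. A second bright probe set gave 0.19, with 0.92 in pair 4 and a mean of −0.05 over pairs 1 to 3. Its homeolog itga5.S was within background at 3.51 and 3.46.

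The common beta chain itgb1.L read 11.13 to 11.67 in DEX and 11.18 to 11.49 in no_DEX, a change of −0.01 with an interval of −0.21 to 0.19 with the block. Its homeolog itgb1.S read 10.71, 10.38, 10.52 and 8.64 on DEX arrays 1 to 4 and 10.61, 10.34, 10.84 and 10.17 on no_DEX arrays 1 to 4. Its change of −0.43 rested on DEX replicate 4. Without that array it was 0.05. On the same array itgb1.L read 11.19, within the range of its other values.

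At an unadjusted p under 0.05 by limma, 3 of the 17 integrins were lower with the block (background 6.31%) and 0 without it (4.80%). They were chosen after their values were seen. The 3 genes were itga4.S, a fibronectin receptor chain, at −0.27, itga3.L, a laminin receptor chain, at −0.21, and itgb5.L, a partner of the alpha V chain, at −0.21 (adjusted p by limma = 0.397, 0.357 and 0.369 with the block). Of them, itga3.L and itgb5.L were lower in 4 of 4 pairs. The alpha V gene itgav.L differed by 0.03 and the laminin receptor chain itga6.L by −0.01. The collagen receptor chains itga2.L and itga11.S had means within background. Chains known from leukocytes and platelets, itgb2.L, itgb2-a, itgb3.L, itga2b.1.S and itga2b.2.L, all had means within background, as did the epithelial chain itgb6.L. In the last group, the integrin-like gene itgbl1.L was within background. The gene itgb1bp2.L, whose mammalian counterpart encodes the muscle protein melusin, differed by −0.03 and varied with the number. Its pairs stood at −0.30, −0.09, −0.51 and 0.77, and its no_DEX array of number 4 was the lowest, at 5.61. The pairs of its dimmer probe set, with an S in its name where the brighter has an A, stood at −0.06, 0.04, −0.58 and −0.09.

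**Figure D3:**
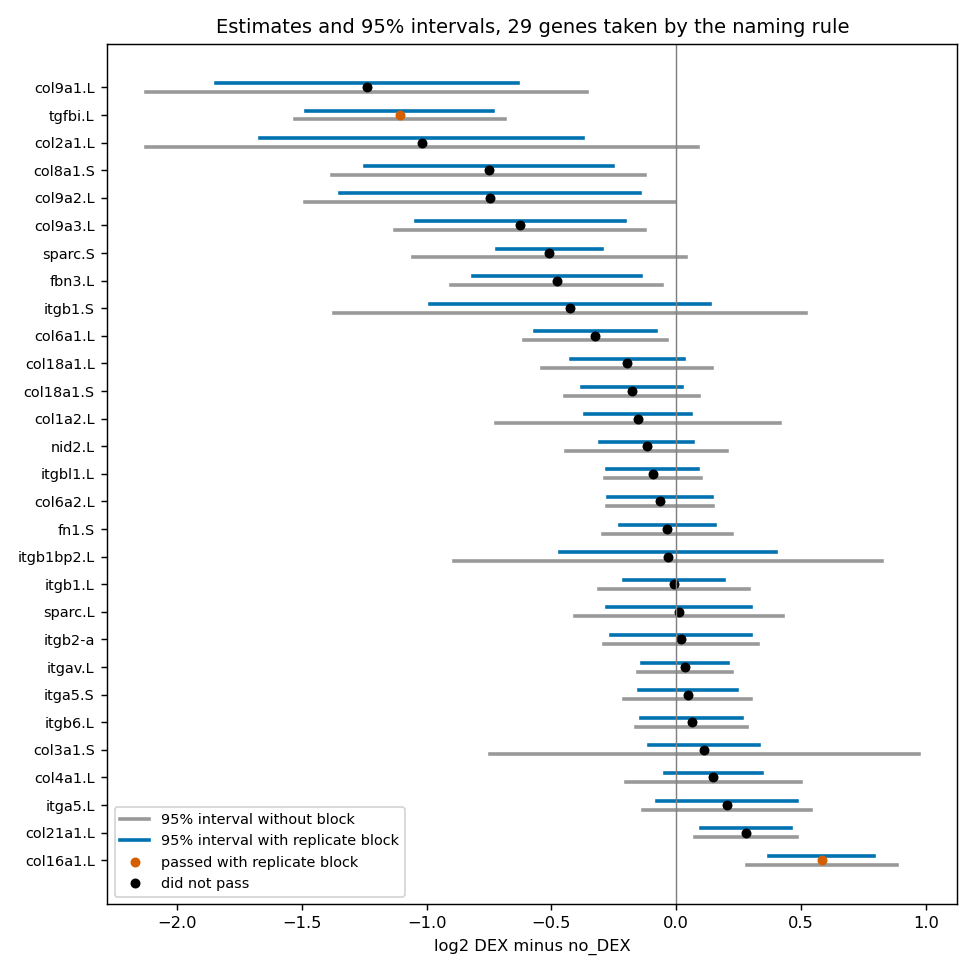
Log2 difference, DEX minus no_DEX (x axis), for the 29 genes taken by the naming rule (y axis), with unadjusted 95% intervals from limma without the block (grey) and with it (blue). Only tgfbi.L and col16a1.L, in orange, passed with the block, and fibronectin (fn1.S), nid2.L and itgb1.L have intervals that include 0.

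Other matrix genes were counted from a list of enzymes, proteoglycans and glycoproteins. With the block 2 of 92 measured genes fell and the other 90 did not pass, and without it the count passing was 0. For such calls the share of all named genes was 0.301% lower with the block and 0.0177% in either direction without. The median change of the listed genes was −0.04, and 25 with and 9 without the block had an unadjusted p under 0.05 by limma. The unadjusted counts here and for the lists below take lower and higher genes together. The lower and higher background shares with the block are therefore to be added. The background among named genes was 6.31% lower and 7.71% higher with the block, and 4.80% in either direction without. The 2 genes of the list that fell were vcan.L, encoding the large proteoglycan versican, and matn4.L, encoding the adaptor protein matrilin 4. Versican read 8.61, 8.69, 8.18 and 8.04 on DEX arrays 1 to 4 and 9.08, 9.48, 8.70 and 8.76 in no_DEX (vcan.L change −0.62, adjusted p by limma = 1.00 without and 0.0307 with the block). The matn4.L change was −0.78 (0.637 and 0.0499), lower in 4 of 4 pairs. Of 33 genes of the integrin adhesion complex, such as talins, vinculin and focal adhesion kinase, 0 passed in either fit, with a median of −0.06. At an unadjusted p under 0.05 by limma there were 10 with and 5 without the block, against the same background.

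Markers of tissues next to the endoderm were summed on each array. The summed signal of 14 skeletal muscle fibre genes above background, as log2, was 12.01, 11.38, 11.53 and 11.10 on DEX arrays 1 to 4 and 12.98, 13.13, 12.65 and 11.09 on no_DEX arrays 1 to 4. The summed signal of the 4 collagen II and IX genes above background was 7.78, 7.30, 7.35 and 7.25 in DEX and 8.54, 9.11, 8.34 and 7.27 on no_DEX arrays 1 to 4. Of these genes, col9a2.L had a mean above background only through its no_DEX arrays. In both sums, no_DEX numbers 1 to 3 stood above every DEX array, and no_DEX number 4 lay at or near the lowest value. Of 37 muscle genes measured, 31 were below 0 and 0 passed, and 23 had means within background, among them acta1.S, myl3.L and myl4.L. At an unadjusted p under 0.05 by limma there were 19 of 37 with the block and 6 without, where 6.31% of all named genes were lower and 7.71% higher with the block and 4.80% in either direction without. The part of muscle in the collagen differences was not tested.

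Of 18 notochord markers, col2a1.L among them, all 18 lay above background, 14 were below 0 and 4 above. With the block 2 fell, shh.L, encoding the signal Sonic hedgehog, and matn4.L, and 0 passed without it. For these calls the background was 0.301% lower with the block and 0.0177% in either direction without. At an unadjusted p under 0.05 by limma the notochord counts were 14 of 18 with the block and 9 without. The background among named genes was 6.31% lower and 7.71% higher with the block, and 4.80% in either direction without. The median changes of the notochord markers in pairs 1 to 4 were −0.39, −0.53, −0.54 and −0.08. Some markers, chosen after their values were seen, stood on the other side of 0. The genes foxa4.L and foxa4.S, which encode a forkhead factor of the axial mesoderm, stood at 0.81 and 0.67, and tbxt.L and tbxt.S, encoding Brachyury, at 0.28 and 0.31, without passing. The summed signal ran from 12.24 to 12.46 in DEX and from 12.19 to 12.59 on no_DEX arrays 1 to 4. In pair 4, where col2a1.L differed by 0.11, shh.L read 6.36 with and 7.25 without dexamethasone. The part of notochord tissue in the collagen differences was not tested.

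The labelled tissue was present on every array. Of 25 endoderm markers measured, 22 were above background, and their summed signal was 14.37 to 14.78 in DEX and 14.01 to 14.81 on no_DEX arrays 1 to 4. Its lowest value was no_DEX number 1. Of the 25 genes 0 passed in either fit, with a median difference of 0.16, and of 0.64 in pair 1. At an unadjusted p under 0.05 by limma the endoderm counts were 9 with the block and 2 without. Neural plate, neural crest and epidermal markers were also above background, for 24 of 26, 19 of 19 and 20 of 20 genes. With the block 1 neural gene rose (elavl3.L) and 1 fell (sox1.S), 0 of 19 neural crest and 0 of 20 epidermal genes passed, and of 26 blood, endothelial and myeloid markers 1 rose (hba3.L) and 2 fell (tal1.S and cebpa.S). No gene of these lists passed without the block. At an unadjusted p under 0.05 by limma with the block, the counts were 15 for neural plate, 5 for neural crest, 1 for epidermis and 11 for blood, endothelium and myeloid cells. Without the block they were 8, 2, 0 and 4. For all these unadjusted counts, endoderm included, the background among named genes was 6.31% lower and 7.71% higher with the block. Without the block it was 4.80% in either direction. For the genes that passed, the background was 0.301% lower and 0.434% higher with the block, and 0.0177% in either direction without.

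**Figure D4:**
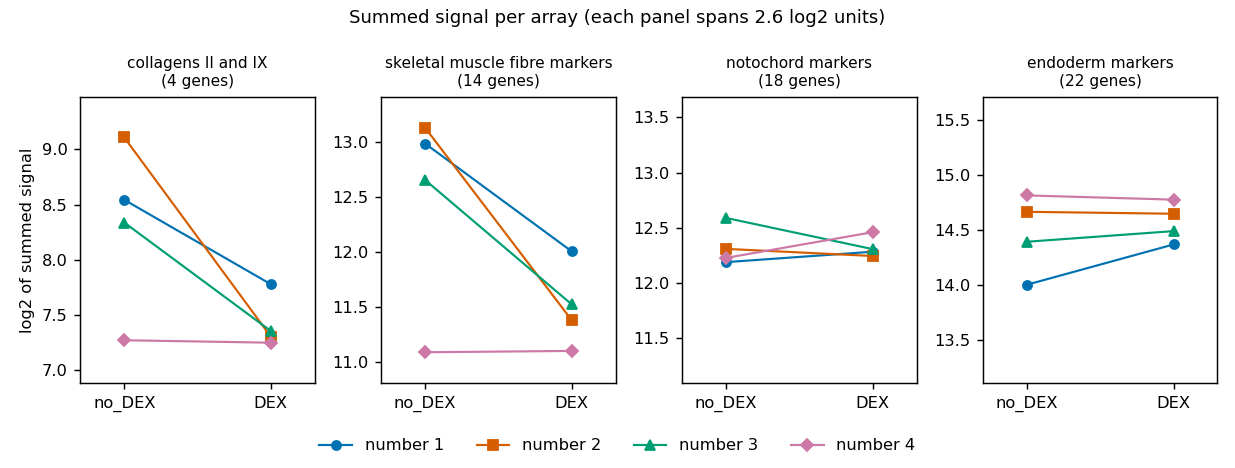
Log2 of the summed signal (y axis) of genes above background in no_DEX and DEX arrays (x axis) for collagens II and IX, skeletal muscle fibre, notochord and endoderm markers; lines join arrays of one replicate number. Summed collagens II and IX and muscle genes are high in no_DEX numbers 1 to 3 and low in both arrays of number 4. The notochord and endoderm sums do not show this, but sums are weighted to the brightest genes. Gene by gene, the median changes of the 18 notochord markers in pairs 1 to 4 were −0.39, −0.53, −0.54 and −0.08.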

How the data were processed

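The data were 8 Affymetrix arrays, 4 per group. The deposited table held log2 expression for each array. It came from RMA, per the submitters' processing notes, whose version is not given in the sources used here. Low signals are compressed by RMA, which understates changes of dim probe sets. Array medians were 6.02 to 6.12, and no further scaling was applied. The number of arrays limits precision, and the median SE of the 44 genes was 0.14 without and 0.09 with the block. Of 32635 probe sets, 96 Affymetrix controls were left out. Symbols came from the platform annotation (15495 probe sets with 1 symbol, 279 with several and left unnamed, 16765 not listed), and 43 of the 44 genes were found in the NCBI gene table, with 0 symbols changed. For 8 genes, col16a1.L among them, the probe set has an A in its name where most have an S, a mark of orientation. The strand measured was not checked.

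Two-sided tests between the groups used lmFit and eBayes of limma 3.58.1 (R 4.3.3) across 32539 probe sets, without a block and with the replicate number as a block. The labels call the arrays biological replicates without saying what a number stands for. The p-values judge a change against the spread between these arrays, and with the block against the spread of differences within numbers. Same-number arrays correlated at 0.63, 0.78, 0.77 and 0.69 in their deviations from the group means, all above 0.1, against at most 0.20 between different numbers. Arrays of one number were therefore treated as pairs. Identical arrays were looked for, and 0 were found. The fits were also run on data simulated from the spread in the fit with the block, with 200 probe sets changed by known amounts. That run checked that the mean estimates lay near those amounts, and it does not bear on the calls made here. The genes described, the gene lists and the groups were chosen with earlier results of these data known. Named were genes of the set passing in either fit, the 10 largest rises and 10 largest falls with their homeologs, col2a1, tgfbi and the 3 brightest of each group, 29 in all, and genes of the other lists that passed. Alternatives were centred medians, a filter on dim probe sets, a trended prior variance, other probe set choices and arrays or pairs left out.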

Additional observations from a re-analysis of the deposited data

Results flagged for a closer look

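In 6 of 88 groups of 4 arrays, 1 array stood far from the other 3 by Dixon's ratio at its 95% critical value. Chance gives such a result in about 1 in 20 groups. All 6 were from integrin or integrin-related genes, which made up 17 and 2 of the 44 genes, and itgb5.L was counted in both groups. For itgb1.S, DEX replicate 4 read 8.64, while the other DEX arrays read 10.38 to 10.71. For itgb5.L, replicate 3 was high in both groups, at 7.79 in DEX (others 7.46 to 7.52) and 8.21 in no_DEX (others 7.59 to 7.68). The no_DEX replicate 2 value of itgav.L was 4.52, with the others at 4.33 to 4.36, near background. No_DEX replicate 4 stood apart for itga5.L, at 8.43 (others 8.06 to 8.08), and for itgb1bp2.L, at 5.61 (others 7.14 to 7.42).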

How the results depend on the processing

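Calls depended on the replicate block. Of all probe sets, 2 passed without the replicate block and 180 with it (107 rose and 73 fell), and of the 44 genes 0 and 2. With the block, the counts were 169 and 1 after centring array medians, 150 and 2 above background only, and 253 and 3 with a trended, robust prior variance. They were 2 of 44 with the mean over a gene's probe sets or with the most variable probe set. With arrays or pairs left out, 0 to 120 of all probe sets passed, with 0 of the 44 genes each time. Settings joining the block with centring, filter, prior or probe set choice were added after seeing the data. Without the block, centring, filter, prior and probe set choice kept 0 of 44.

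Averaging probe sets turned col4a1.L to −0.029 and itgb1.L to 0.051 in both fits, and the most variable probe set turned col6a2.L to 0.025 in both fits. Leaving out arrays or pairs turned 9 signs, with ranges of −0.31 to 0.0044 for col1a2.L, −0.15 to 0.43 for col3a1.S, −0.11 to 0.041 for fn1.S, −0.017 to 0.12 for itga5.S, −0.12 to 0.061 for itgb1.L, −0.64 to 0.049 for itgb1.S, −0.44 to 0.16 for itgb1bp2.L, −0.088 to 0.14 for itgb2-a and −0.12 to 0.15 for sparc.L. Signs were followed in this way only for the 29 genes taken by the naming rule. Among the others, for example, col9a1-b and itga6.L turned without pair 4, to 0.038 and 0.071. The cause was not tested. Signal limits the 17 of 44 genes with means within background, where a missing difference is one not detectable at this signal.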
